A study of Mus musculus with 9 samples.

Results

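The mitochondrial carrier family Slc25 was examined in whole kidneys of young and old wild-type mice. Members were all genes of the deposited table whose symbol is Slc25a followed by a number, whatever their values, which gave 39 of 13081 listed genes. The reference annotation holds 47 protein-coding genes with such a symbol. The other 8 (Slc25a2, Slc25a18, Slc25a31, Slc25a41, Slc25a43, Slc25a47, Slc25a53 and Slc25a54) were not among the genes listed and are not analysed here. The young group held 4 mice of 3 months and the old group 5 mice of 16 months. Both groups carried the wild-type genotype, and the labels name no agent. The paper names the strain of such young and old cohorts as C57BL/6, and sex is not stated for single animals.

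Carriers of this family are proteins with repeated pairs of membrane-spanning helices, most of which sit in the inner mitochondrial membrane. They exchange nucleotides, phosphate, organic acids, amino acids, cofactors and metal ions between the cytosol and the matrix, usually against a counter-substrate. The kidney tubule, and the proximal tubule above all, relies on mitochondrial oxidation for the energy of reabsorption, so that fuel entry, ADP/ATP exchange and amino acid handling in tubule cells all pass through these carriers.

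Values are normalised counts, that is, read counts per gene divided by a size factor for each library. The libraries were made from transcript ends, and values were not divided by transcript length, so levels are compared between libraries and not between genes. A difference is given as the log2 fold change, old over young, on log2(normalised count + 1), and "called" stands for an adjusted p-value under 0.05 in limma, adjusted over all genes tested. All 39 members passed the filter on low values, which asked for 10 or more normalised counts in 4 or more libraries. Slc25a27 reached this minimum in old libraries alone and Slc25a22 in young libraries alone. A difference was then bound to appear, so the values of both are given as a description. They are among the 9 carriers counted as higher and the 19 counted as lower below; without them 8 were higher (21.6%) and 18 lower (48.6%) of 37, against 28.2% higher and 30.4% lower of the 12240 genes that reached the minimum in both groups.

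Of the 39 carriers, 28 (71.8%) were called, against a background of 59.7% of the 12667 genes tested. Transcripts of 19 carriers (48.7%) fell in old kidneys, where 30.5% of all genes tested were called lower. Those of 9 carriers (23.1%) rose, where 29.2% of all genes were called higher. A change of at least 1.5-fold together with a call was found for 20 carriers (51.3%), 15 lower and 5 higher, against 45.1% of all genes. The ranges of the groups did not overlap for 26 carriers (66.7%), 18 with old below and 8 with old above, against 49% of all genes. Without Slc25a22 and Slc25a27 the former count was 18 of 37 (48.6%), 14 lower (37.8%) and 4 higher (10.8%). It was 43.5% of the genes that reached the minimum in both groups, 23.3% lower and 20.3% higher. The latter count was 24 of 37 (64.9%), 17 below (45.9%) and 7 above (18.9%). Of the same genes 47.8% did not overlap, 25.4% with old below and 22.4% with old above. The median log2 fold change was -0.41 over the carriers and -0.00 over all genes tested. It was -0.23 over the carriers without old 4, -0.26 without young 2 and -0.16 over the 27 carriers with a mean of at least 100, with medians over all genes of -0.01, 0.01 and 0.01. The median size of the change was alike, 0.59 and 0.56. Among the 37 carriers that reached the minimum in both groups, the largest falls were in Slc25a5 and Slc25a42 and the largest rises in Slc25a25 and Slc25a48.

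**Figure D1:**
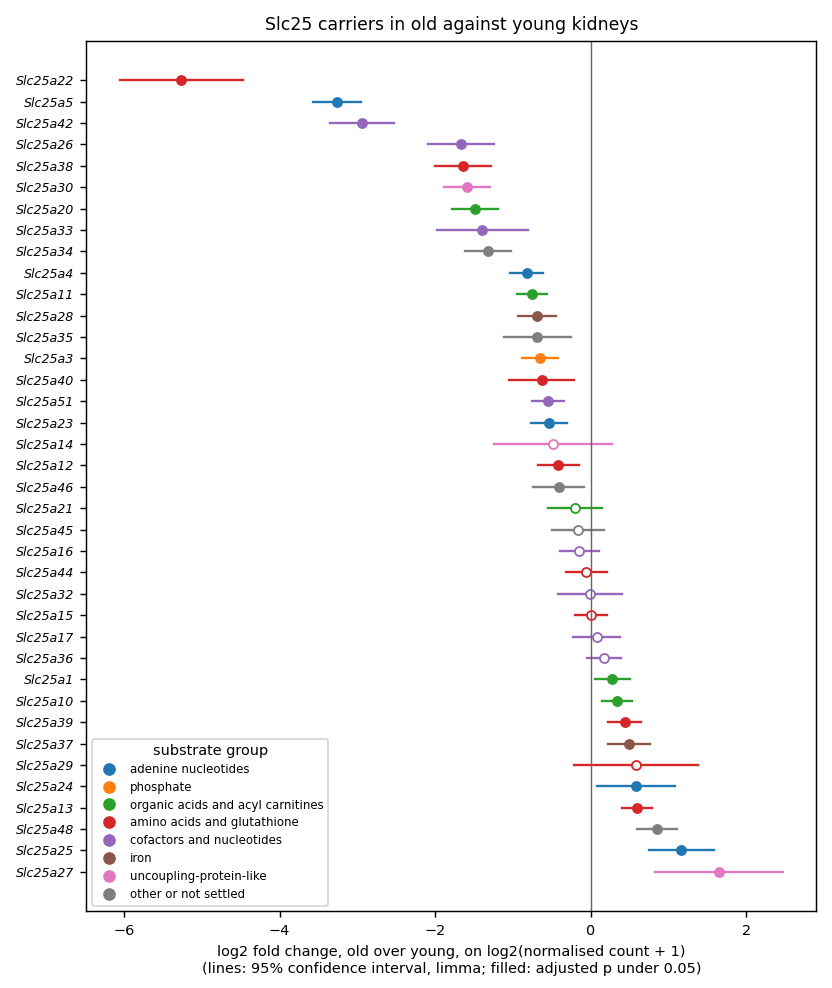
Log2 fold change of 38 of the carriers, old over young (x axis), with its 95% confidence interval from limma, coloured by substrate group; filled points had an adjusted p-value under 0.05. The called carriers run from -3.26 for Slc25a5 to 1.16 for Slc25a25, apart from Slc25a22 and Slc25a27, which passed the filter on low values through 1 group alone and are shown as a description.

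**Figure D2:**
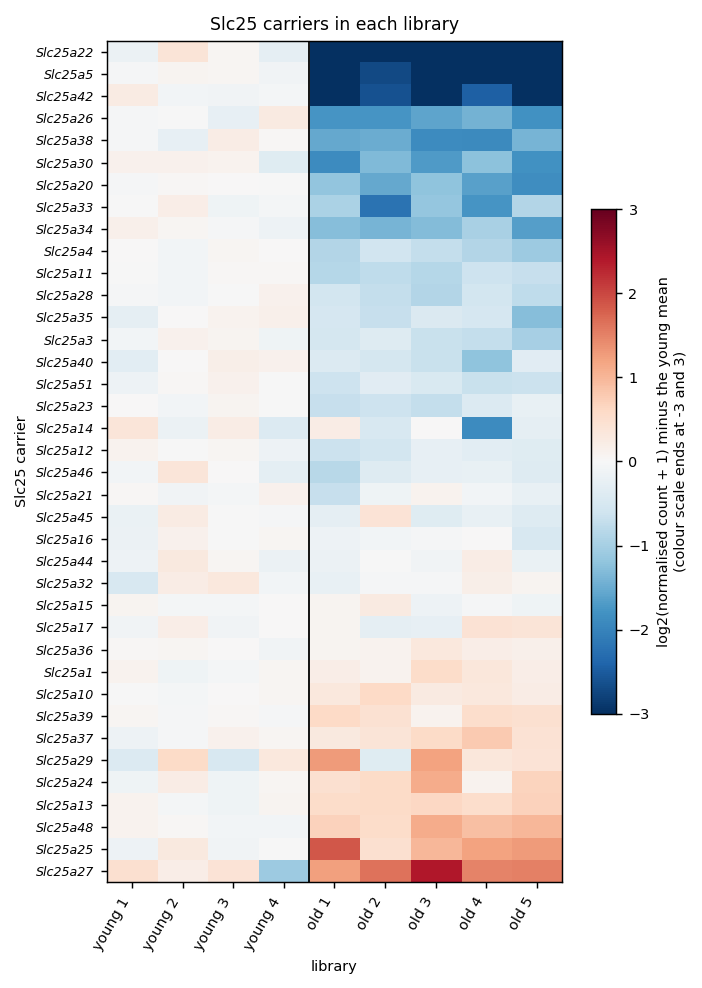
Log2(normalised count + 1) of 38 carriers (rows, ordered by fold change) in each of the 9 libraries (columns), minus the mean of the young libraries. The 5 old libraries show the falls of the upper rows and the rises of the lower rows alike; the colour scale ends at -3 and 3, beyond which values of Slc25a22, Slc25a5 and Slc25a42 lie.

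The 9 libraries held 4486406 to 6355095 reads in the listed genes. Genes of the mitochondrial genome took 27.0 to 29.7% of the reads in young and 35.8 to 38.1% in old libraries, and the mitochondrial ribosomal RNAs among them took 2.98 to 4.46% of the reads in young and 21.8 to 25.4% in old. Without these rRNAs the genes of the mitochondrial genome took 23.8 to 25.3% in young and 12.7 to 15.0% in old; the part of these shifts in the carriers' values was not tested beyond the rescaling that follows. With all genes of the mitochondrial genome left out and the remaining reads scaled to equal totals, the median of all genes moved to 0.14, that of the carriers to -0.27, and 10 carriers were called higher and 17 lower, where 35.4% of all genes were called higher and 25.1% lower. These carriers include Slc25a27 and Slc25a22, for which a difference was bound to appear. The titles of the libraries carry 2 prefixes that follow age, so that any step of preparation or sequencing tied to a prefix and age itself cannot be told apart. All 7 markers of the proximal tubule were listed, with sums of 32323 to 33135 in young and 30428 to 38577 in old, and 0 of 4 skeletal muscle markers were. Of the 7, 3 were called higher, 3 lower and 1 not. Other cell type markers also moved with age. In old kidneys 2 of 3 markers of the distal convoluted tubule were called higher and 1 lower, 3 of 4 of the endothelium higher, 2 of 5 of leukocytes higher, 3 of 4 of principal cells lower, and 3 of 4 of intercalated cells lower and 1 higher. Of 4 markers of the thick ascending limb 1 was called higher, of 4 of podocytes 2 higher and 1 lower, and of 5 of erythroid cells 2 higher and 1 lower. Summed markers were 2019 to 2722 in young and 3977 to 4850 in old for the distal convoluted tubule, 787 to 867 and 1109 to 1279 for the endothelium, 828 to 984 and 1067 to 1427 for leukocytes, 2001 to 2640 and 934 to 2936 for principal cells, and 620 to 689 and 424 to 535 for intercalated cells. They were 7270 to 7960 in young and 8391 to 11748 in old for the thick ascending limb, 507 to 550.0 and 386 to 443 for podocytes, and 13530 to 19362 and 12446 to 30372 for erythroid cells. The part of these cell types in the carriers' values was not tested. Summed adipocyte markers were 274 to 1489 in young and 57.8 to 1370.1 in old, highest in young 2 and old 3. Without these 2 libraries the median log2 fold change was -0.33 over the 38 carriers tested and 0.00 over 12175 genes. In whole tissue, fewer cells of a type and less RNA per cell cannot be told apart.

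The stretches before the transcript start are shown for 4 carriers on which the results turn: both ADP/ATP carriers, which differed in the size of their fall, Slc25a42, which fell steeply, and Slc25a25, which rose. Each is the 250 bases before a RefSeq start on build GRCm38.p6, written 5′ to 3′ on the strand of the gene, with CCAAT and GGGCGG on either strand in capitals.
Slc25a4, chr8:46211063-46211312, - strand: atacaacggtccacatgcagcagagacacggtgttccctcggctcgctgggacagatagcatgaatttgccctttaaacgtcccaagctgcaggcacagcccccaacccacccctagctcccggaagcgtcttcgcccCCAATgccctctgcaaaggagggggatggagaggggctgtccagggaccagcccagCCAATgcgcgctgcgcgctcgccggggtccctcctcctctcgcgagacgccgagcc
Slc25a5, chrX:36795347-36795596, + strand: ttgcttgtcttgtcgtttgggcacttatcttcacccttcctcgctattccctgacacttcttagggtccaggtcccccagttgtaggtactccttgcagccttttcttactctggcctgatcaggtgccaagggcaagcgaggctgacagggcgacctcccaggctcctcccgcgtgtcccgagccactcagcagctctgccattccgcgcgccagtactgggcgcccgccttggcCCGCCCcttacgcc
Slc25a42, chr8:70212282-70212531, - strand: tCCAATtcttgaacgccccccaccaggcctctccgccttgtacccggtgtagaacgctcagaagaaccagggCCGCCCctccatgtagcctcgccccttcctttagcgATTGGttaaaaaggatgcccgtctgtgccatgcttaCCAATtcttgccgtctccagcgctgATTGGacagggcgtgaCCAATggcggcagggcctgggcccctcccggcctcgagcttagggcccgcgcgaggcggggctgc
Slc25a25, chr2:32451471-32451720, - strand: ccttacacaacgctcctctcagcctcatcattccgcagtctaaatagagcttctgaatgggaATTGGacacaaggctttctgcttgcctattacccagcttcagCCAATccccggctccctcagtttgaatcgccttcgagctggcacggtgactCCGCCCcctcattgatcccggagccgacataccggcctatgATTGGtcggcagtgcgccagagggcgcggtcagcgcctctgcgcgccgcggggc
The Slc25a42 stretch held 5 copies of CCAAT and 1 GC box (GGGCGG). That of Slc25a25, which lies before 1 of its 3 listed starts, held 3 and 1, that of Slc25a4 held 2 and 0, and that of Slc25a5 held 0 and 1.

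Counts of calls in each substrate group are a description of a few carriers. Over all genes tested 59.7% were called, 29.2% higher and 30.5% lower. Among the carriers of adenine nucleotides, all 5 were called, 3 lower and 2 higher. Slc25a5, the ADP/ATP carrier also known as ANT2, had 2879, 3119, 3040.4 and 2748 normalised counts in the 4 young libraries. In the 5 old libraries it had 215, 448, 337, 271 and 306. The lowest young value was over 6 times the highest old value, and the group means were 2947 ± 166 (SD, n = 4) and 315 ± 87.1 (SD, n = 5). The fall was 9.34-fold on the means, with a log2 fold change of -3.26 (SE 0.15, adjusted p = 3.65e-12). Of the words of 50 bases in the last 500 bases of this transcript, 26.2% also occur in pseudogene transcripts (Slc25a5-ps, Gm5529 and Gm5560), so part of its reads may be split among copies, and its value is uncertain to that extent.

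Slc25a4, the other ADP/ATP carrier (ANT1) and the main form of heart and muscle, had 1296, 1206, 1329.5 and 1297 in the young libraries. It had 698, 859.8, 785, 696 and 605 in the old libraries, all below the young ones. Its fall of 1.76-fold gave a log2 fold change of -0.82 (SE 0.10, adjusted p = 1.39e-06). The ranges did not overlap, as for Slc25a5, and the fall on the log2 scale was smaller than that of Slc25a5.

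The 3 ATP-Mg/phosphate carriers, which load the matrix with adenine nucleotides and are regulated by calcium, did not move together. Slc25a23 fell, with 472 to 534 in young and 306 to 429 in old and a log2 fold change of -0.53 (SE 0.11, adjusted p = 0.000441). Slc25a25 rose, from 77.0, 106, 79.4 and 85.1 in the young libraries to 315, 121, 172, 201 and 209 in the old ones. The lowest old value, in old 2, lay just above the highest young value, and the spread in old was wide, 204 ± 70.9 (SD, n = 5) against 86.9 ± 13.2 (SD, n = 4). This gave a log2 fold change of 1.16 (SE 0.20, adjusted p = 5.61e-05), or 2.35-fold on the means. Slc25a24 had 19.7, 25.3, 19.6 and 22.6 in young and 30.6, 32.8, 47.7, 23.3 and 35.0 in old, with overlapping ranges. Its log2 fold change of 0.59 (SE 0.24, adjusted p = 0.0409) passed the threshold, but the call was lost in 9 of the 21 alternatives that gave it a value.

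**Figure D3:**
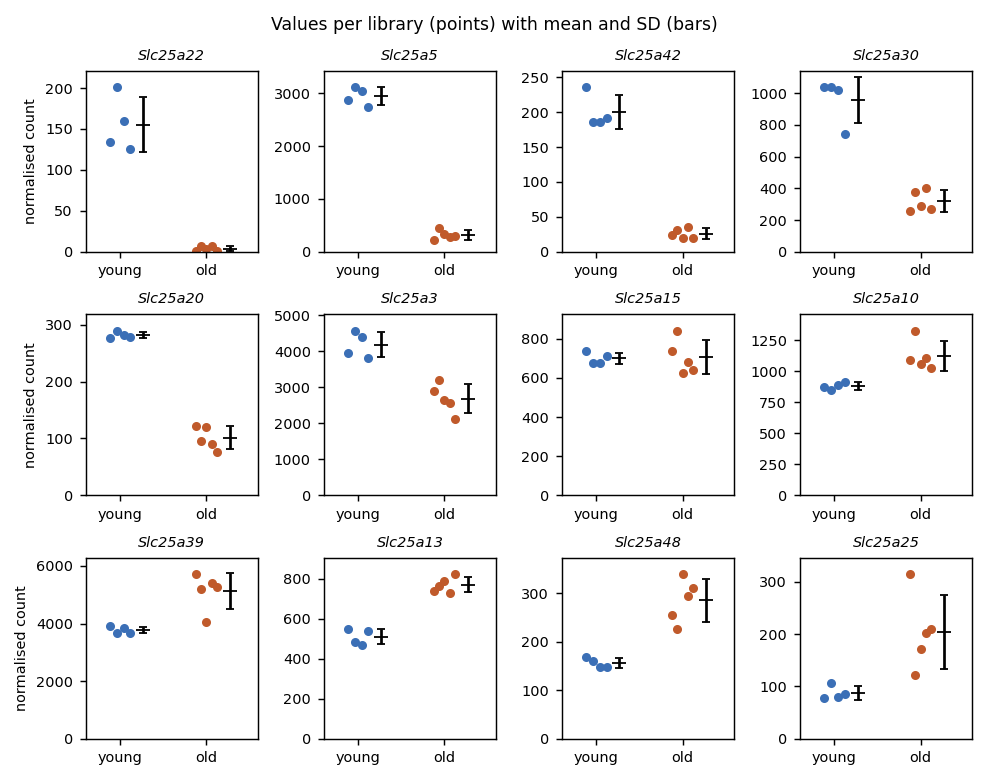
Normalised counts of 12 carriers in each library (points), with the mean and SD of the 4 young and 5 old libraries beside them; each axis starts at 0. The ranges of the groups are apart in every panel except that of Slc25a15.

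The phosphate carrier Slc25a3, which brings phosphate into the matrix for ATP synthesis, had 3948, 4573, 4401 and 3823 normalised counts in young. It had 2884, 3201, 2635, 2551 and 2109 in old, and the groups did not overlap. The fall was 1.56-fold, with a log2 fold change of -0.66 (SE 0.11, adjusted p = 5.66e-05).

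Of 5 carriers of organic acids and acylcarnitines, 2 fell, 2 rose and 1 was not called. Slc25a20 passes acylcarnitines into the matrix for fatty acid oxidation. It had 276, 289.6, 282 and 279 in young, a narrow range, and 123, 96.3, 121, 90.5 and 76.4 in old, all lower. Its fall was 2.78-fold on the means, with a log2 fold change of -1.49 (SE 0.14, adjusted p = 4.83e-08). Slc25a11, the oxoglutarate carrier that exchanges oxoglutarate for malate in the malate-aspartate shuttle, had 652, 619, 669 and 669.9 in young. Its old values of 358, 387, 362, 423 and 405 lay below all young values, and the log2 fold change was -0.75 (SE 0.093, adjusted p = 1.37e-06).

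Slc25a10, which exchanges dicarboxylates such as malate and succinate for phosphate, had 874, 847, 891 and 915 in young. It had 1090.3, 1329, 1057, 1104 and 1026 in old, all above the young range, with old 2 highest. The rise was 1.27-fold, with a log2 fold change of 0.34 (SE 0.093, adjusted p = 0.0041). Slc25a1, the exporter of citrate for lipid synthesis, had 427, 360.5, 377 and 413 in young and 450.3, 427, 574, 498 and 453 in old. The lowest old value, 427 in old 2, and the highest young value, 427 in young 1, met. Its log2 fold change of 0.28 (SE 0.11, adjusted p = 0.0298) lost the call in 7 of 22 alternatives, including the omission of young 2, young 3, old 3 or old 4. Slc25a21, a carrier of oxodicarboxylates, had 77.7 to 92.3 in young and 51.9 to 91.3 in old and was not called, at -0.20 (SE 0.17, adjusted p = 0.31). Of the words of 50 bases at its transcript end, 32.4% are shared with other genes, so its value is uncertain.

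Of 9 carriers of amino acids and glutathione, 4 fell, 2 rose and 3 were not called. Slc25a22, a glutamate carrier counted among the falls, passed the filter on low values through the young libraries alone. It had 134, 201, 159.8 and 126 normalised counts in young and 1.18, 6.56, 3.04, 6.53 and 1.06 in old. These old values rest on 1, 6, 3, 7 and 1 reads, against 164, 207, 163 and 139 reads in the young libraries, so the groups did not overlap while the size of the difference is imprecise. The log2 fold change, as a description, was -5.26. Over the alternatives that gave it a value the difference ran from -5.72 to -4.24. The other glutamate carrier, Slc25a18, was not among the genes listed.

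Slc25a12 and Slc25a13 both exchange aspartate for glutamate in the malate-aspartate shuttle, Slc25a13 (citrin) being the form of liver and kidney epithelia and Slc25a12 (aralar) that of brain and muscle. Slc25a13 rose, from 548, 485, 469 and 539 in young to 740.2, 764, 787, 729 and 822 in old, without overlap. The log2 fold change came to 0.59 (SE 0.091, adjusted p = 1.82e-05). Slc25a12 had 188, 174, 180.4 and 157 in young and 112, 119, 148, 139.9 and 136 in old, also without overlap. It fell, with a log2 fold change of -0.42 (SE 0.13, adjusted p = 0.00775), and lost the call when genes of the mitochondrial genome were left out before scaling (-0.28, adjusted p = 0.068, limma).

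Slc25a38, a glycine carrier needed for haem synthesis, had 116, 99.1, 139 and 122 in young. It had 40.1, 41.6, 31.4, 30.8 and 44.6 in old, with a log2 fold change of -1.64 (SE 0.17, adjusted p = 2.1e-07). The glutathione carriers moved in opposite directions. Slc25a39 had 3904, 3684, 3842 and 3666 in young and 5714, 5208, 4063, 5424 and 5267 in old, where old 3 stood nearest the young values. It rose by 0.44 on the log2 scale (SE 0.10, adjusted p = 0.00126). Slc25a40 had 53.2, 67.0, 74.5 and 72.4 in young and 49.5, 45.9, 41.6, 28.0 and 52.0 in old. It fell, with a log2 fold change of -0.63 (SE 0.20, adjusted p = 0.0111).

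Slc25a15, the ornithine carrier of the urea cycle, had 736, 677, 678 and 712 in young. It had 738, 842, 628, 681 and 641 in old, a wider spread around a like mean, and was not called. Old over young stood at 0.00 (SE 0.10, adjusted p = 0.98) on the log2 scale, with a 95% confidence interval of -0.21 to 0.21. Slc25a29, which carries basic amino acids, had 7.37, 15.5, 6.86 and 12.7 in young and 25.9, 7.66, 24.3, 13.1 and 13.8 in old. It was not called, and the 95% confidence interval of its log2 fold change ran from -0.21 to 1.37 (adjusted p = 0.197, limma). Slc25a44, linked to branched-chain amino acids, had 200.1 to 277 in young and 197 to 264 in old and was not called, at -0.06 (SE 0.13, adjusted p = 0.713).

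Of 9 carriers of cofactors and nucleotides, 4 fell, 0 rose and 5 were not called. Slc25a42 brings coenzyme A into the matrix in exchange for adenine nucleotides. It had 236, 187, 185 and 191 in young and 23.6, 31.7, 19.3, 35.4 and 19.1 in old, so that the lowest young value was over 5 times the highest old value. The fall was 7.73-fold on the means, with a log2 fold change of -2.94 (SE 0.20, adjusted p = 5.03e-10). Slc25a16, also linked to coenzyme A, had 230.1, 283, 256 and 269.8 in young and 233, 244, 252, 263 and 185 in old. The ranges overlapped and it was not called, at -0.15 (SE 0.12, adjusted p = 0.301).

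Slc25a26, which imports S-adenosylmethionine for methylation in the matrix, had 55.9 to 80.6 in young and 18.0 to 24.3 in old. The fall gave a log2 fold change of -1.67 (SE 0.20, adjusted p = 1.09e-06); of the words of 50 bases at its transcript end, 21.1% are shared with Lrig1, which overlaps it on the other strand. Slc25a51, the carrier of NAD, had 1256 to 1541 in young and 883 to 1104 in old. It fell, with a log2 fold change of -0.55 (SE 0.097, adjusted p = 7.96e-05), and its exons overlap Gm25692 on the same strand.

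The pyrimidine nucleotide carriers differed. Slc25a33 had 43.4, 50.5, 40.2 and 42.5 in young and 22.4, 8.75, 19.3, 12.1 and 23.3 in old, lowest in old 2. It fell, with a log2 fold change of -1.39 (SE 0.28, adjusted p = 0.0003). Slc25a36 had 237, 242, 237 and 218 in young and 246, 253, 290.0, 269 and 259.9 in old. All old values lay above the young ones, but the log2 fold change of 0.17 (SE 0.10, adjusted p = 0.158) missed the threshold. It was called in 1 alternative, which scaled to the reads without genes of the mitochondrial genome (0.31, adjusted p = 0.0152, limma), and turned sign without a call when the transcript length trend was removed (-0.03).

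Carriers of FAD and folate (Slc25a32) and of coenzyme A in the peroxisome (Slc25a17) were not called. Slc25a32 had 33.6 to 58.8 in young and 40.1 to 53.2 in old, and Slc25a17 had 287 to 357 and 256 to 421. Their log2 fold changes were -0.01 and 0.08, with intervals of -0.42 to 0.41 and -0.23 to 0.38.

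The mitoferrins bring iron into the matrix for haem and iron-sulphur clusters. Slc25a37, mitoferrin 1 and the form known from erythroid cells, had 115, 124, 140.2 and 133 in young. It had 158, 166, 192, 222 and 173 in old, all higher, with a log2 fold change of 0.50 (SE 0.13, adjusted p = 0.00268). Slc25a28, mitoferrin 2 and the form of other tissues, had 235, 225, 239 and 262 in young. It had 164, 145, 129.8, 163 and 142 in old, all lower, with a log2 fold change of -0.69 (SE 0.12, adjusted p = 4.66e-05). Among 5 erythroid markers 2 were called higher and 1 lower, with sums of 13530.2 to 19362 in young and 12445 to 30372 in old; their part in the Slc25a37 values was not tested.

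Of the 3 relatives of the uncoupling proteins, 1 was called lower, 1 higher and 1 not. The one that fell was Slc25a30, the kidney mitochondrial carrier, which had 1037, 1039, 1018 and 739.6 in young, with young 4 apart from the others. It had 256, 379.6, 290.0, 405 and 269 in old, all lower. The fall was 2.99-fold, with a log2 fold change of -1.59 (SE 0.14, adjusted p = 2.26e-08). Slc25a14 had 30.3, 20.4, 27.5 and 17.2 in young and 27.1, 16.4, 23.3, 5.60 and 19.1 in old and was not called, at -0.48 (SE 0.36, adjusted p = 0.261). Slc25a27, the one called higher, passed the filter on low values through the old libraries alone. It had few reads, with 1.81 to 7.37 in young and 13.0 to 30.4 in old, and a log2 fold change of 1.65 as a description.

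Of 5 members with other or unsettled roles, 1 rose, 3 fell and 1 was not called. Slc25a48, linked to choline, rose from 168, 161, 148 and 148 in young to 255, 228, 339.7, 294 and 312 in old. This was a log2 fold change of 0.85 (SE 0.13, adjusted p = 1.09e-05), or 1.83-fold on the means. Slc25a34, whose substrate is not settled, had 230.1, 216, 201 and 186 in young and 84.9, 78.8, 83.2, 104 and 65.8 in old, without overlap. It fell, with a log2 fold change of -1.32 (SE 0.14, adjusted p = 2.6e-07). Its relative Slc25a35 had 47.5 to 64.3 in young and 23.3 to 42.6 in old and fell by 0.68 on the log2 scale (SE 0.21, adjusted p = 0.00791). Slc25a46, an outer membrane protein of mitochondrial division, overlapped between the groups with 128 to 202 in young and 87.2 to 134 in old. Its log2 fold change of -0.41 (SE 0.16, adjusted p = 0.0291) lost the call in 5 of 22 alternatives. Slc25a45 had 138 to 188 and 121 to 210.0 and was not called (-0.16), except without old 2 (-0.31, adjusted p = 0.0488, limma).

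To compare carriers of like substrates within each library, the log2 ratio between both members was taken for the 9 of 11 pairs in which both were tested. The groups were compared by a two-sided exact permutation test over the 9 libraries, whose smallest possible p is 0.00794, with 126 arrangements of the libraries. In 6 pairs the ratios of the groups did not overlap and the p was this smallest value (exact permutation test, adjusted p = 0.0119 over the 9 pairs). Over all pairs of genes tested, 47% had ratios that did not overlap between the groups, so separation of a pair is common in these libraries. The ratios rest on the same values as the changes of the members given above and are no separate evidence for them. The pairs were also chosen with earlier results of these data known, so the p-values are a description.

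The ratio of Slc25a4 to Slc25a5 was -1.15, -1.37, -1.19 and -1.08 in young and 1.70, 0.94, 1.22, 1.35 and 0.98 in old. The groups were apart, with a shift of 2.44 from -1.20 ± 0.12 (SD, n = 4) in young and 1.24 ± 0.31 (SD, n = 5) in old. The coenzyme A pair, Slc25a16 to Slc25a42, showed the largest shift among the 9 pairs, 2.79, from 0.38 ± 0.28 (SD, n = 4) in young and 3.17 ± 0.32 (SD, n = 5) in old. In the mitoferrins the ratio of Slc25a37 to Slc25a28 shifted by 1.19, with -1.03 to -0.77 in young and -0.05 to 0.56 in old. For both of these pairs the ranges were apart by more than the spread within either group.

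The ratio of Slc25a39 to Slc25a40 was higher in old, 5.64 to 6.17 in young and 6.58 to 7.55 in old. The ratio of Slc25a12 to Slc25a13 was lower, -1.78 to -1.37 in young and -2.71 to -2.37 in old, a shift of -1.01. That of Slc25a33 to Slc25a36 was lower too, with a shift of -1.56. The remaining 3 pairs overlapped. Slc25a24 to Slc25a25 shifted by -0.58 (exact permutation p = 0.175, adjusted 0.196) and Slc25a15 to Slc25a29 by -0.58 (exact permutation p = 0.286). Slc25a14 to Slc25a30 shifted by 1.11 (exact permutation p = 0.0873, adjusted 0.112), and passed the threshold in 1 alternative, without old 4, the library with the lowest Slc25a14 value (1.55, adjusted p = 0.0367, exact permutation test).

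**Figure D4:**
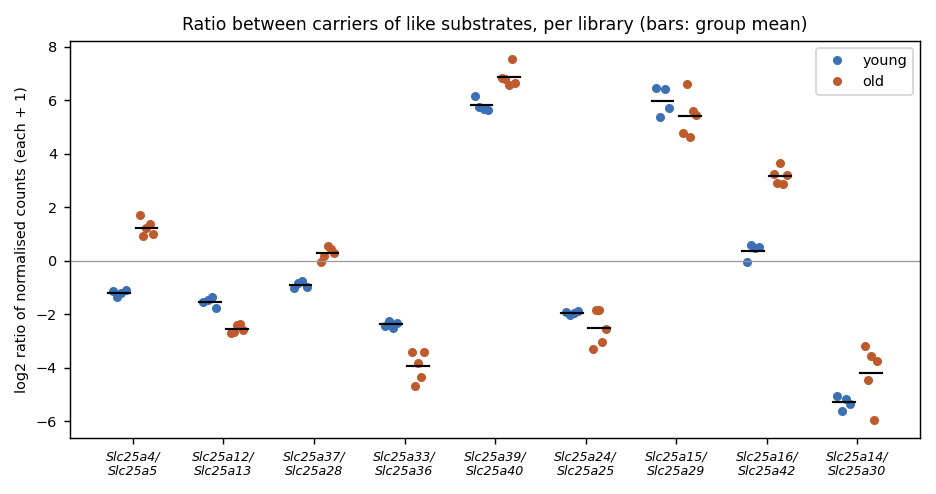
Log2 ratio of normalised counts (each + 1) between the members of 9 pairs of carriers, in each young and old library (points), with group means (bars). The groups are apart in 6 pairs, and the Slc25a4 to Slc25a5 ratio runs from -1.37 to -1.08 in young and from 0.94 to 1.70 in old.

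Summed over the family, normalised counts were 21102 to 22499 in young and 15942 to 18078 in old libraries, without overlap, and the ratio of the means was 0.774. Slc25a5 was 13.4% of the sum in young and 1.86% in old, and without it the ratio was 0.878. The sum counts reads and is not per length. The family took 0.435% of the reads of the table in young and 0.324% in old, a ratio of 0.746. When genes of the mitochondrial genome were left out of the total, that ratio was 0.854.

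Other genes of mitochondrial transport were taken from 8 lists of 53 genes, 49 of which were tested. Of these, 26 (53.1%) were called lower, 8 (16.3%) higher and 15 not, against 30.5% lower and 29.2% higher among all genes tested. Among relatives of the carriers with other symbols, Ucp2, an uncoupling protein, fell from a range of 181 to 299 in young to 47.0 to 94.2 in old (log2 fold change -1.98, SE 0.20, adjusted p = 1.05e-07, limma). Mtch1, an outer membrane relative, rose (log2 fold change 0.49, SE 0.10, adjusted p = 0.00039, limma), and Mtch2, an insertase of the outer membrane, fell (log2 fold change -0.26, SE 0.096, adjusted p = 0.0267, limma). Of 15 inner membrane transporters of other families 6 were called lower, 2 higher and 7 not. Both subunits of the pyruvate carrier fell, Mpc1 by 1.13 and Mpc2 by 1.06 on the log2 scale.

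The outer membrane channels through which carrier substrates reach the intermembrane space were all called. Vdac1 fell, with 4031 to 4204 in young and 1601 to 2098 in old (log2 fold change -1.14, SE 0.096, adjusted p = 1.04e-08, limma). Vdac2 fell, with 789 to 828 in young and 301 to 494 in old, whereas Vdac3 rose, with 374 to 423 in young and 515 to 700.1 in old (log2 fold change 0.65, SE 0.11, adjusted p = 3.33e-05, limma). On the route that inserts carriers into the inner membrane, 6 of 10 genes were called lower, 2 higher and 2 not. The small chaperones Timm9 and Timm8b fell most in this list (-1.89 and -2.19), and Timm22, the insertion channel, rose by 0.45.

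Of 8 genes of the malate-aspartate shuttle and of glutamate use, 4 were called lower and 1 higher. The cytosolic enzyme Got1 fell (log2 fold change -1.15, SE 0.16, adjusted p = 5.78e-06, limma), and so did cytosolic Mdh1 (log2 fold change -1.16, SE 0.11, adjusted p = 2.91e-08, limma). Their mitochondrial counterparts were not called, with log2 fold change -0.13, SE 0.10, adjusted p = 0.258 for Got2 and log2 fold change 0.19, SE 0.088, adjusted p = 0.064 for Mdh2 in limma. Among carnitine enzymes Cpt1a, which makes acylcarnitines ahead of Slc25a20, rose (log2 fold change 0.64, SE 0.13, adjusted p = 0.000252, limma), and Cpt2, which acts behind it, fell (log2 fold change -0.30, SE 0.11, adjusted p = 0.0222, limma). Odc1, which uses ornithine for polyamines, fell, with 3409 to 4240.3 in young and 973 to 1613 in old (log2 fold change -1.47, SE 0.13, adjusted p = 1.75e-08, limma), and Oat fell by 0.55. Of 4 genes of ATP synthase, 3 were called lower, Atp5b by 0.81, Atp5a1 by 0.37 and Atp5c1 by 0.35 on the log2 scale, and its inhibitor Atpif1 was not called (-0.07).

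Log2 fold changes were set beside transcript length in the carriers and in all genes. Spearman's rho with the annotated length was 0.283 over the 39 carriers and 0.283 over 12433 genes, and with the annotated length of the 3′ UTR 0.240 over the carriers and 0.170 over 11454 genes, as a description across genes of the same libraries. The difference between carriers and all genes was not tested. Of 14 carriers with transcripts of up to 2000 bases, 9 were called lower and 2 higher, with a median of -0.72; over all genes of that length 44.1% were called lower, 18.8% higher, and the median was -0.31. Of 25 longer carriers, 10 were called lower and 7 higher, with a median of -0.15, where 25.5% of all such genes were called lower, 33.1% higher, and the median was 0.10. After the length trend had been removed from each library, 9 carriers were called higher and 19 lower, where 29.0% of all genes were called higher and 28.9% lower. Slc25a22 and Slc25a27, which passed the filter on low values through 1 group alone, are in these counts and in those of the longer carriers.

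**Figure D5:**
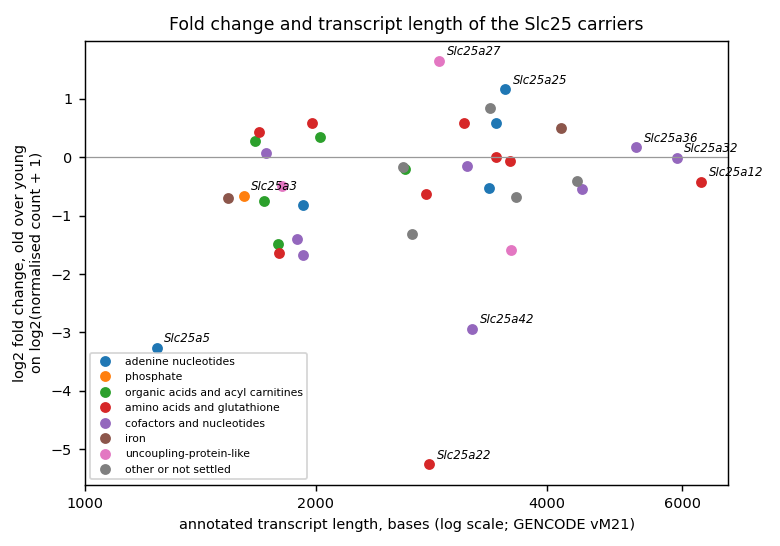
Log2 fold change, old over young, of 38 carriers (y axis) against the annotated transcript length in bases (x axis, log scale), coloured by substrate group. Slc25a5, the shortest at 1240 bases, fell by 3.26, while Slc25a22 and Slc25a42 had 2811 and 3196 bases and log2 fold changes of -5.26 and -2.94.

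In each old library the median of the carriers lay below the young mean. The median difference of the carriers from the young mean was -0.41, -0.38, -0.24, -0.32 and -0.34 in old 1 to 5, and in each 21 to 24 of the 39 carriers (53.8 to 61.5%) lay below all young values and 10 to 12 (25.6 to 30.8%) above. Over all genes tested 38.7 to 40.8% lay below all young values and 37.4 to 40.3% above. In every old library these carriers include Slc25a22 below and Slc25a27 above, for which a difference was bound to appear. All genes tested likewise include 427 that reached the minimum in 1 group alone. Among the 28 called carriers, which also include both, the old library nearest to the young values was old 2 or old 4 for 8 carriers each. It was old 5 for 5, old 1 for 4 and old 3 for 3.

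Promoter windows of 300 bases (250 before and 50 after a start) were found for 30 of the 39 carriers and for 9620 of the genes tested, and were searched on both strands. A gene was counted once when any of its windows held the letters. The GC box, GGGCGG, was found for 27 of 30 carriers (90%), in 14 of 15 that fell, 6 of 7 that rose and 7 of 8 not called. It was found for 68.8% of the genes tested, and in 35.7% of all 32851 windows. CCAAT was found for 17 carriers (56.7%), 9 that fell, 4 that rose and 4 not called, against 42.2% of the genes tested and 37.4% of all windows. The E-box CACGTG was found for 6 carriers (20%), against 11.99% of the genes tested and 7.15% of all windows. AGGTCA was found for 3 carriers (10%), against 15.0% of the genes tested and 16.3% of all windows. TGACGTCA was found for Slc25a25 and Slc25a36 (3.44% of the genes tested, 1.79% of all windows), and GCGCATGC for 0 carriers (5.79% of the genes tested, 2.71% of all windows). Differences between carriers that fell and carriers that rose were not tested.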

How the data were processed

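Kidney RNA of 9 mice was made into transcript-end libraries by oligo(dT) priming and read from 1 end with strand kept. The labels and the study's methods name different versions of the kit. Per the submitters' processing notes and the methods, the authors used FastQC 0.11.7, TopHat2 2.0.10 with Bowtie 1.0.0 and SAMtools 0.1.19 on GRCm39, and counted by strand with HTSeq 0.6.1. The deposited values are a signal: gene counts that the authors divided by 1 size factor per library with DESeq. In each library 100% of the values were whole multiples of the smallest one (tolerance 0.01 reads), which gave the reads back. The lowest mean of a listed gene was 4.49, so low genes had been left out by a rule not stated. The floor of 3 reads was 4.72e-05% to 6.69e-05% of the reads of a library; it covers counting error only, since reads carry no molecular identifiers.

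Groups came from the age in the labels, and library numbers follow the listed order. limma 3.58.1 (R 4.3.3, variance trend) was fitted on log2(normalised count + 1) for 12667 genes with Benjamini-Hochberg adjustment; it was checked on simulated data. As alternatives, edgeR 4.0.16 and DESeq2 1.42.0 were run on the recovered reads, with other pseudocounts (0.1 and 5), filters, scalings, thinning, removal of the length trend and omission of each library. Exact permutation tests enumerated every arrangement of the libraries in Python 3.11.15. Transcript lengths, overlaps and shared words came from a GRCm38 annotation matched by symbol (12833 of 13081 genes, 39 of 39 carriers), which is not the build of the counts. Values in every library were given for the 7 largest rises and falls among called carriers with a mean of at least 50, for both members of each pair, and for Slc25a3, Slc25a20, Slc25a1, Slc25a10 and Slc25a11. The members, pairs and lists were chosen with earlier results of these data known. The values of 1 carrier that was not called are not reported here, though it is included in the counts.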

Additional observations from a re-analysis of the deposited data

Results flagged for a closer look

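In 7 of 98 groups of values, which were the levels of each carrier, the ratio of each pair and the family sum in young and in old, 1 library stood far from the others, where chance at 1 in 20 would give 4.9. The gap to the nearest library is given as a share of the range of the group. In young, Slc25a30 was lower in young 4 (9.53 on the log2 scale, the others 9.99 to 10.02, gap 0.940) and Slc25a42 was higher in young 1 (7.89 against 7.54 to 7.59, gap 0.874). In old 2, Slc25a10 was higher (10.38 against at most 10.11, gap 0.715), and so was Slc25a45 (7.72 against 6.93 to 7.10, gap 0.785). Slc25a39 was lower in old 3 (11.99 against 12.35 to 12.48, gap 0.728) and Slc25a46 in old 1 (6.46 against 6.91 to 7.08, gap 0.724). The log2 ratio of Slc25a39 to Slc25a40 was higher in old 4 (7.55 against 6.58 to 6.82, gap 0.747). Slc25a30, Slc25a42, Slc25a10 and Slc25a39 remained called without the library named, whereas Slc25a46 lost its call (-0.31, adjusted p = 0.0823, limma) and Slc25a45 gained one (-0.31, adjusted p = 0.0488, limma).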

How the results depend on the processing

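Of the 39 carriers, 29 kept their direction and their side of the threshold under all alternatives that gave them a value (up to 22), and 10 did not. The 29 include Slc25a22 and Slc25a27, which passed the filter on low values through 1 group alone, so that their calls were bound to hold. Slc25a22 had a value in 16 alternatives only, since it failed the filter when a young library was left out. The calls of Slc25a1, Slc25a12, Slc25a24 and Slc25a46 were lost in at least 1 alternative, and Slc25a36 and Slc25a45 gained a call in 1 each. Differences turned sign only in carriers that were not called. Scaling to equal table totals gave Slc25a15 -0.0497, and scaling without genes of the mitochondrial genome gave Slc25a32 0.132 and Slc25a44 0.0835. Thinned reads gave Slc25a32 0.0525, and removal of the length trend gave Slc25a36 -0.0306. With 1 library left out, the values ran from -0.0625 to 0.0434 for Slc25a15, from -0.0161 to 0.163 for Slc25a17, from -0.164 to 0.0994 for Slc25a32 and from -0.126 to 0.0360 for Slc25a44.

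With only genes of a mean of at least 100 tested, 4101 of 5655 genes were called. The median was -0.16 over 27 carriers and 0.01 over all genes of this fit. Of the 27 carriers 12 changed by at least 1.5-fold with a call. The matching share of all genes is not given here, so this count is not read against a background. The median over the carriers was -0.27 when genes of the mitochondrial genome were left out before scaling, -0.28 after removal of the length trend, and -0.45 to -0.23 with 1 library left out. After the data had been seen, young 2 and old 3, which had the highest sums of adipocyte markers, were left out together. The median was then -0.33 over the 38 carriers tested and 0.00 over 12175 genes. Slc25a1, Slc25a24 and Slc25a46 lost their calls, and Slc25a32 (0.0793) and Slc25a44 (0.0453) turned sign. The shift of the Slc25a14 to Slc25a30 ratio was 0.86 to 1.55 with 1 library left out and passed the threshold without old 4. The ratio of the family's share of the reads, old over young, was 0.746 of all reads and 0.854 without genes of the mitochondrial genome. The cause of these shifts was not tested. No paired analysis was possible because the titles carry no replicate number and the mice of the groups differ. With 4 young and 5 old mice, carriers with few reads in either group (Slc25a27, Slc25a29, Slc25a22 and Slc25a14) had the widest intervals.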
